A study of Mus musculus with 22 samples.

Results

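The cultures described here were whole Oct4GIP cultures after 16 days (d16) and after 8 days (d8) of treatment, before any passage in naive medium. They made up 8 of the 22 libraries of the series, 4 at d8 and 4 at d16, and each d16 library was paired with the d8 library of the same treatment. Oct4GIP is a line of mouse epiblast stem cells (mEpiSCs), the primed form of pluripotent cell, with a transgene in which the Oct4 promoter drives GFP and puromycin resistance. Cells had been grown in Ndiff227 with FGF2 and Activin A, and were then kept on mouse embryonic fibroblast (MEF) feeders in Basal medium with 1% FBS and 10% knockout serum replacement. The 4 treatments were Basal medium alone, 2iL (inhibitors of MEK and GSK3 with leukemia inhibitory factor, LIF), AICAR, an activator of AMP-activated protein kinase, and AICAR with LIF (AICAR+LIF). The AICAR dose was 0.5 mM up to day 6 and was then raised to 1 mM. Feeder RNA was not separated from that of the treated cells, and all libraries came from 1 line.

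Epiblast cells that lose FGF and Activin signals leave pluripotency and often take a neural path. In the developing nervous system, progenitors first give rise to neurons and later to astrocytes. Notch signaling holds progenitors back while their neighbours, which display Notch ligands, become neurons under proneural transcription factors. The later step to astrocytes is known to involve the NFI factors and JAK-STAT signals, and the RNA-binding protein Lin28 declines as tissues mature.

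The comparison of d16 with d8 asked which transcripts changed over the second week of treatment, whatever the treatment was. Total counts lay between 438771 and 2860985 at d8 and between 2686012 and 5290163 at d16, and the shallowest libraries were AICAR+LIF d8 (438771) and AICAR d8 (956357). A level of 3 counts amounted to 0.577 to 6.46 CPM (counts scaled to a common library size), a limit that covers counting error only. Levels are CPM scaled by TMM factors, and differences are log2 fold changes of d16 over d8 from edgeR's quasi-likelihood test with treatment as the block. Each SE is the size of the change divided by the t value that matches its p-value. It is thus no separate measure of counting error where levels rest on few counts. Each library was the only one of its treatment and day, so that a p-value measured how evenly a change recurred over the 4 pairs. Of 14026 genes tested, 2066 (14.7%) were higher and 1332 (9.5%) lower at d16 at an adjusted p under 0.05. Without normalization factors the split was 1727 higher and 1807 lower, and the median of all genes moved from 0.0057 to −0.135 on the log2 scale. In all 3398 genes were called (24.2%), against 1209 without the Basal pair, 1684 without the 2iL pair, 1803 without the AICAR pair and 2645 without the AICAR+LIF pair. Without the Basal pair 895 were higher and 314 lower, and without the 2iL pair 1178 and 506. Without the AICAR pair 1235 were higher and 568 lower, and without the AICAR+LIF pair 1703 and 942. Falls were thus lost more than rises over all genes, and the counts of each list below stand beside this. All 4 libraries at d16 lay above all 4 at d8 in 14.1% of the genes tested, and below them in 10.8%.

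Genes of neuron birth fell and genes of astrocytes rose. The 12 largest falls among well expressed genes were Robo3, Ebf2, Lhx1, Scrt2, Dll3, Prdm13, Nhlh2, St18, Dll1, Scrt1, Myt1 and Nhlh1. They encode mostly transcription factors of newborn neurons, with the Notch ligands Dll1 and Dll3 and the axon guidance receptor Robo3. The 12 largest rises were Gfap, C4b, Ttr, Aqp4, Serpina3n, Eln, Padi2, Islr, Als2cl, Lbp, Adora1 and Sparcl1, among which Gfap, Aqp4 and Sparcl1 are known astrocyte genes. All 12 rises kept their call when any 1 pair was left out. Of the 12 falls, 6 were not called without the Basal pair (Robo3, Scrt2, Nhlh2, Dll1, Myt1 and Nhlh1) and 1 (Robo3) was not called without the 2iL pair, while all 12 were called without the AICAR or the AICAR+LIF pair.

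**Figure D1:**
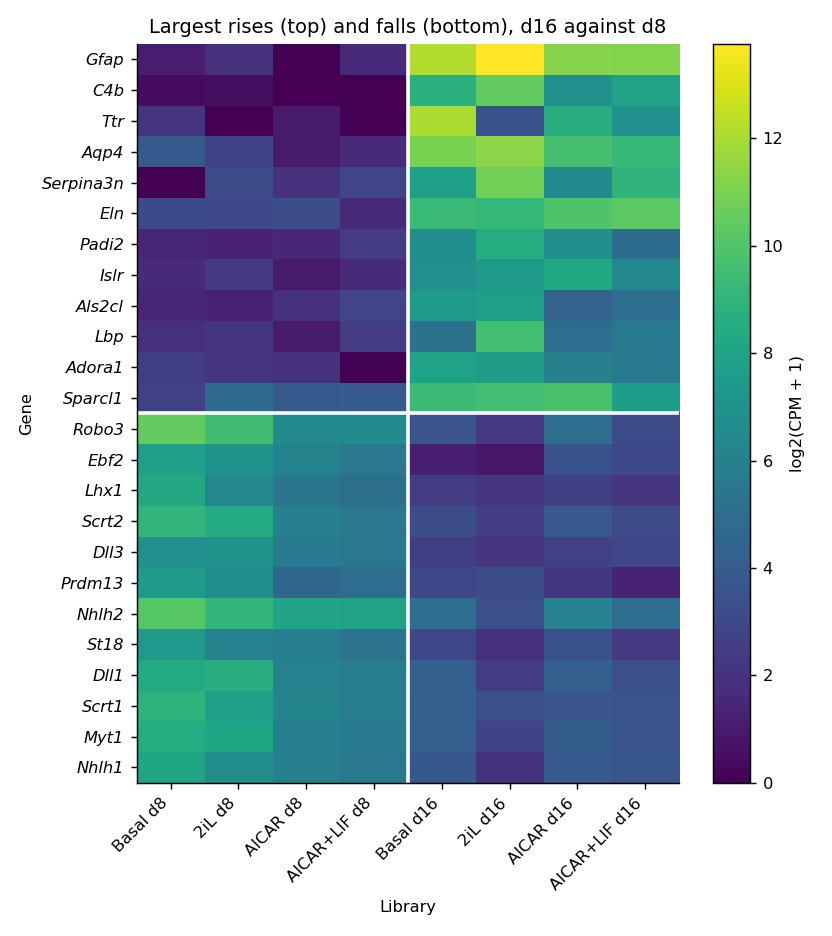
Level of the 12 largest rises (top) and the 12 largest falls (bottom) in each of the 8 libraries, as log2(CPM + 1), with 1 row per gene and 1 column per library. In every gene shown the 4 libraries at d16 lie on one side of the 4 at d8.

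Proneural and early neuronal factors were lower at d16. Neurog2 (Neurogenin 2, chromosome 3, 127633135 to 127635631 on GRCm38), a factor that commits progenitors to become neurons, was at 166, 71.5, 47.4 and 32.3 CPM at d8 in Basal medium, 2iL, AICAR and AICAR+LIF and at 22.1, 3.83, 15.8 and 10.7 CPM at d16. The days did not overlap (log2 fold change −2.55, SE 0.44, adjusted p = 0.011). Ebf2 (chromosome 14, 67233292 to 67430918), a factor of migrating young neurons, was at 218, 134, 69.1 and 43.1 CPM at d8 in the same order of treatments, which is kept from here on, and at 1.35, 0.851, 10.1 and 6.86 CPM at d16. All d16 levels lay below all d8 levels (log2 fold change −4.62, SE 0.89, adjusted p = 0.0153). Sox11, which acts in newborn neurons, was at 594 to 2037 CPM at d8 and 132 to 244 CPM at d16 (log2 fold change −2.63, SE 0.40, adjusted p = 0.00849). Neurog2 was not called without the Basal pair (adjusted p = 0.0598).

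Of 23 transcription factors of neuron birth, 21 were tested, of which 18 fell and 0 rose. The other 3 were Neurod1 (−2.06, adjusted p = 0.0816), Neurod2 (−1.03, adjusted p = 0.0808) and Neurod6 (0.58, adjusted p = 0.579). The median log2 fold change of the tested members was −2.63, against 0.0057 over all genes. The list was written after the leading genes had been seen, so its counts are a description. The falls numbered 7 without the Basal pair, 13 without the 2iL pair, 14 without the AICAR pair and 18 without the AICAR+LIF pair. The median change was −3.59 and −3.73 in the Basal and 2iL pairs and −1.93 and −1.67 in the AICAR and AICAR+LIF pairs. Summed over the list, the level was 7870, 6006, 2403 and 2073 CPM at d8 and 982, 524, 879.6 and 848 CPM at d16.

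Transcription factors that specify neuron subtypes of spinal cord, hindbrain and midbrain fell in 6 of 14 tested cases (26 listed, after the leading genes were seen) and rose in 0. Lhx1 (chromosome 11, 84518284 to 84525535), a LIM homeodomain factor of interneurons, was at 318, 85.7, 41.5 and 32.3 CPM at d8 and at 4.61, 3.405, 5.04 and 3.43 CPM at d16 (log2 fold change −4.45, SE 0.56, adjusted p = 0.00503). Its d8 level in Basal medium stood well above the others, and no d16 level reached any d8 level. Its relative Lhx5 also fell (log2 fold change −4.69, SE 0.62, adjusted p = 0.00537), as did Pax2, Lbx1, Skor1 and Prdm13.

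Genes of neuronal structure fell less evenly, with 10 falls and 0 rises among 24 tested of 28 and a median of −0.867. This list was also written after the leading genes were seen. Tubb3, the neuronal β-tubulin (chromosome 8, 123411424 to 123422015), was at 1375, 776, 380.1 and 325 CPM at d8 and at 127, 111, 142 and 113 CPM at d16. All d8 libraries were above all d16 libraries (log2 fold change −2.30, SE 0.38, adjusted p = 0.0101). Elavl4 (HuD), an RNA-binding protein of neurons, was at 96.9 to 369.9 CPM at d8 and 12.8 to 29.6 CPM at d16 (log2 fold change −3.20, SE 0.46, adjusted p = 0.00716). Robo3 (chromosome 9, 37415669 to 37433246), a receptor that lets commissural axons cross the midline, was at 1382, 739, 91.8 and 90.4 CPM at d8 and at 11.2, 3.83, 30.9 and 8.003 CPM at d16. Its change (log2 fold change −4.94, SE 1.16, adjusted p = 0.0263) was not called without the Basal pair (adjusted p = 0.0883) or the 2iL pair (0.0666). Genes of synaptic vesicles and their release did not pass the test, with log2 fold changes of −0.34 for Snap25, 0.63 for Syt1, 0.64 for Syn1 and 0.02 for Vamp2. The falls numbered 3 without the Basal pair, 3 without the 2iL pair and 10 without either AICAR pair. In these bulk samples, fewer cells of a type and less of the transcript per cell cannot be told apart.

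**Figure D2:**
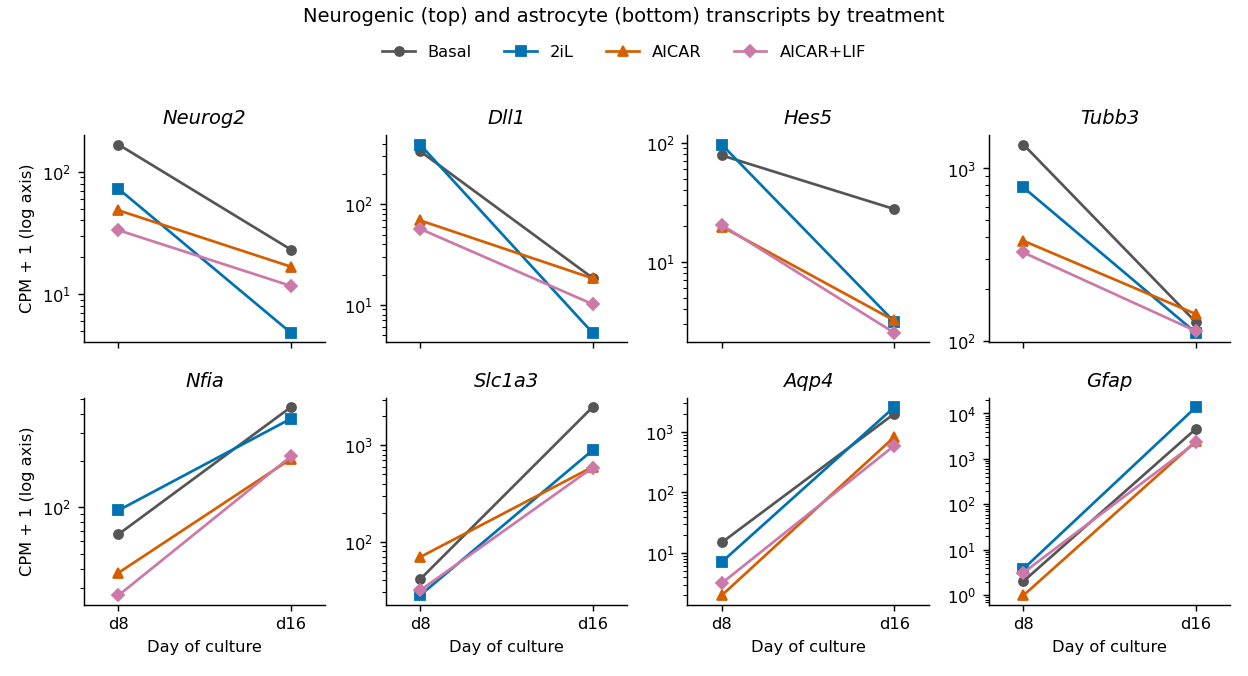
Level of Neurog2, Dll1, Hes5 and Tubb3 (top) and 4 astrocyte transcripts (bottom) at d8 and d16 as CPM + 1 on a log axis. There is 1 line and marker per treatment. Hes5, headed neurogenic with the others of the top row, is a Notch effector of neural progenitors. All 4 lines fall in each upper panel and rise in each lower panel, and Hes5 in Basal medium at d16 (26.7 CPM) stays above its AICAR and AICAR+LIF levels at d8.

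Of 22 genes of the Notch pathway, listed after the leading genes were known, 19 were tested, of which 9 fell, 2 rose and 8 did not pass, with a median of −0.62. The falls numbered 7 to 9 with any 1 pair left out, and the rises 0 without the Basal pair and 2 without any other. Of the ligands, Dll1 (chromosome 17, 15367354 to 15376872) was at 337, 392, 68.1 and 55.97 CPM at d8 and at 17.5, 4.26, 17.3 and 9.15 CPM at d16 (log2 fold change −3.78, SE 0.72, adjusted p = 0.0148). It was not called without the Basal pair (adjusted p = 0.0682). Dll3, a divergent Delta protein, was at 125, 133, 52.3 and 45.2 CPM at d8 and at 4.81, 3.405, 5.67 and 6.48 CPM at d16 (log2 fold change −4.02, SE 0.43, adjusted p = 0.00305). Both ligands were lower in every d16 library than in any d8 library. Jag1 and Jag2 fell by 1.47 and 2.18 on the log2 scale (adjusted p = 0.0191 and 0.00761). The days overlapped for Jag1, whose adjusted p was 0.122 without the block.

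Among the receptors, Notch1 fell and Notch2 rose. Notch1 was at 379, 507, 269.5 and 230.3 CPM at d8 and at 224, 135, 105 and 125 CPM at d16 (log2 fold change −1.23, SE 0.23, adjusted p = 0.0136). Notch2 was at 81.3, 66.3, 196 and 142 CPM at d8 and at 251, 182, 321 and 241 CPM at d16 (log2 fold change 1.14, SE 0.21, adjusted p = 0.0138). It was higher at d16 in all 4 pairs, but its d8 level in AICAR was above its d16 level in 2iL. Notch1 was not called without the AICAR pair (adjusted p = 0.0509), nor Notch2 without the Basal pair (0.0531) or the block (0.0631). Notch3 did not pass (log2 fold change −0.62, adjusted p = 0.0612). The glycosyltransferase Mfng, which tunes the response of the receptor to its ligands, and Rbpj, the DNA-binding partner of activated Notch, fell by 2.92 and 0.83 on the log2 scale (adjusted p = 0.00444 and 0.0193).

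The targets divided. Nrarp, a target that limits the pathway, was at 127, 124, 92.8 and 77.5 CPM at d8 and at 19.2, 7.23, 5.67 and 11.1 CPM at d16 (log2 fold change −3.36, SE 0.31, adjusted p = 0.00209). Hes5, a main Notch effector of neural progenitors, was at 77.4, 95.8, 18.8 and 19.4 CPM at d8 and at 26.7, 2.13, 2.21 and 1.52 CPM at d16. It was lower at d16 in all 4 pairs (log2 fold change −3.08, SE 0.63, adjusted p = 0.0177), with an adjusted p of 0.0788 without the block. Hey1, a related repressor, was at 16.8 to 25.5 CPM at d8 and 31.3 to 76.7 CPM at d16 (log2 fold change 1.21, SE 0.22, adjusted p = 0.0133), and was not called without the Basal pair (adjusted p = 0.0677). Hes1 was at 21.02 to 84.9 CPM at d8 and 48.5 to 99.5 CPM at d16 and was not called (log2 fold change 0.79, SE 0.33, adjusted p = 0.119). Hey2 had all 4 d16 libraries above the d8 libraries and was not called either (log2 fold change 2.06, SE 0.68, adjusted p = 0.0674).

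Promoters of the pathway's genes were searched on both strands for GTGGGAA, the core of the Rbpj site, in windows from 250 bases before to 50 after the RefSeq start (GRCm38.p6). Promoters were matched for 18 of the 22 genes (23 promoters). Hes1, Hey1 and Mfng were among the genes without a matched promoter and were not searched. Of the 23 promoters, 3 held the motif, those of Lfng, Hes5 and Hey2. Of all 32851 listed promoters, 6.38% held it. The promoters of Hes5, which fell, and of Hey2, which was not called, held 2 matches each and are shown because both genes are Notch targets. They lie at chr4:154960673-154960972 (Hes5, plus strand) and chr10:30842734-30843033 (Hey2, minus strand) and are written 5′ to 3′ on the gene's strand, with the matches, in either orientation, in capitals.
Hes5: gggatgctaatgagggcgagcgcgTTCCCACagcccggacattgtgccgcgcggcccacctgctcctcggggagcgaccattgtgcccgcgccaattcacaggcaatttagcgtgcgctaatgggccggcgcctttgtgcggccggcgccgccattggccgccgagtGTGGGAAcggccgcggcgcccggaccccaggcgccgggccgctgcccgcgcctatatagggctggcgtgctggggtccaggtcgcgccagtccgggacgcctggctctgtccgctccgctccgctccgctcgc
Hey2: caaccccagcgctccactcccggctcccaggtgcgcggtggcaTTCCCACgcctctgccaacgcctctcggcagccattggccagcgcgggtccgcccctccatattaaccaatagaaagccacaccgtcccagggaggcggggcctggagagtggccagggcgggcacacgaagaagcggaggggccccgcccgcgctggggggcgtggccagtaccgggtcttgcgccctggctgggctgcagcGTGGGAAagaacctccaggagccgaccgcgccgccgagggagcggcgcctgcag
The Nrarp window held no match, which says only that these letters are not in it.

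Astrocyte genes rose in all 4 treatments. Gfap (chromosome 11, 102887336 to 102900912), the intermediate filament of astrocytes, was at 1.04, 2.83, 0 and 2.15 CPM at d8 and at 4603, 13812, 2443 and 2319 CPM at d16. The d8 levels rest on 11 counts in all 4 libraries (log2 fold change 12.09, SE 0.41, adjusted p = 0.000131). Aqp4, the water channel of astrocyte endfeet, was at 13.9, 6.06, 0.987 and 2.15 CPM at d8 and at 2005, 2587, 828 and 595 CPM at d16 (log2 fold change 8.08, SE 0.41, adjusted p = 0.000468). Slc1a3, the glutamate transporter GLAST that radial glia also carry, was at 39.6, 26.7, 68.1 and 30.1 CPM at d8 and at 2504, 892, 598 and 586 CPM at d16 (log2 fold change 4.66, SE 0.50, adjusted p = 0.00305). At d16 all 3 were higher in Basal medium and 2iL than in either AICAR arm. Hepacam, an adhesion protein of astrocytes, had 2 counts over the d8 libraries and 1762 over those at d16, a depth-adjusted ratio of 451 (95% counting interval 125 to 3726).

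The NFI transcription factors, which act in the switch to glial genes, rose. Nfia (chromosome 4, 97772734 to 98118874) was at 65.6, 94.2, 36.5 and 25.8 CPM at d8 and at 443, 372, 204 and 212 CPM at d16 (log2 fold change 2.52, SE 0.21, adjusted p = 0.00185). The lowest d16 level was above the highest d8 level. Nfib (log2 fold change 2.73, SE 0.32, adjusted p = 0.00389) and Nfix (3.47, SE 0.22, adjusted p = 0.000838) rose as well, and so did Sox9, which acts upstream in gliogenesis (1.47, SE 0.18, adjusted p = 0.0047). Of 28 astrocyte genes, listed after the leading genes were seen, 26 were tested, 23 rose and 0 fell, and the median log2 fold change was 3.88. The rises numbered 20 to 25 with any 1 pair left out. The 3 that did not pass were Apoe (3.94, adjusted p = 0.0551), Slc1a2 (0.35, adjusted p = 0.444) and Fgfr3 (−0.43, adjusted p = 0.122). The list's summed level was 1705, 1532, 1237 and 1319 CPM at d8 and 25000, 35620, 10020 and 7391 CPM at d16.

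Of 20 neural and neural crest genes 16 were tested, 10 fell and 1, Gfap, rose, with a median of −1.7. This list was written before the leading genes were seen, but with earlier results of these data known. It holds neuronal genes given above as well as the progenitor genes Sox1 (−1.89, adjusted p = 0.00363) and Nes, the intermediate filament nestin (−1.57, adjusted p = 0.00464), which both fell. The falls numbered 5 without the Basal pair, 6 without the 2iL pair and 9 to 10 with 1 of the AICAR pairs left out. Sox2 and Pax6, progenitor factors of which Pax6 is in that list, did not pass. Sox2 was at 114 to 219 CPM at d8 and 100.2 to 318 CPM at d16 (log2 fold change −0.05, SE 0.27, adjusted p = 0.916). Pax6 was at 21.5 to 82.3 CPM at d8 and 25.8 to 84.8 CPM at d16 (log2 fold change −0.12, SE 0.40, adjusted p = 0.856). Of 16 oligodendrocyte genes 7 were tested and 2 rose, Cnp (4.05) and Pdgfra (2.34), of which the latter is also a fibroblast gene. The myelin gene Mbp was at 22.2 to 40.01 CPM at d8 and 8.77 to 27.1 CPM at d16 and was not called (log2 fold change −0.88, SE 0.39, adjusted p = 0.137).

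Genes of the choroid plexus, the epithelium that secretes cerebrospinal fluid, were also among the rises. Ttr (transthyretin), which endoderm and liver cells express as well, was at 3.13, 0, 0.987 and 0 CPM at d8 and at 4142, 10.2, 387 and 124 CPM at d16 (log2 fold change 10.09, SE 0.38, adjusted p = 0.00018). At d16 it was highest in Basal medium and lowest in 2iL. Enpp2, which makes lysophosphatidic acid, was at 24.3, 14.6, 8.89 and 0 CPM at d8 and at 283, 246, 392 and 128 CPM at d16 (log2 fold change 4.39, SE 0.44, adjusted p = 0.00246). Of 13 genes listed after the leading genes were known, 11 were tested, 7 rose and 0 fell. The rises numbered 5 to 7 with any 1 pair left out. Of 15 endoderm genes 2 were tested, Ttr and Foxa1, a factor that opens chromatin (1.68, adjusted p = 0.025), and both rose. Without the Basal or the AICAR+LIF pair 1 rose. The summed level of the endoderm list in Basal medium at d16 was 4166 CPM, of which Ttr made up 4142 CPM. Where 10 counts were required of each library, 0 members of either list were tested. After thinning, 3 choroid plexus genes were tested and 3 rose, and 0 endoderm genes were tested. A member that passed the filter only through its d16 levels could hardly fall, so the counts of both lists are a description.

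Extracellular matrix genes rose. Of 44 collagen chains 32 were tested, 20 rose and 0 fell, with a median log2 fold change of 1.5. Without the AICAR pair 9 rose, and 15 to 17 rose without any other. Col3a1 (chromosome 1, 45311538 to 45349706), a fibrillar collagen, was at 342, 751, 268 and 144 CPM at d8 and at 1027, 18488, 5299.8 and 4701 CPM at d16 (log2 fold change 3.95, SE 0.63, adjusted p = 0.00903). It was highest in 2iL on both days. Col1a1, the main chain of type I collagen, was at 947 to 1399 CPM at d8 and at 2382, 18057, 5524 and 6818 CPM at d16 (log2 fold change 2.46, SE 0.48, adjusted p = 0.0161), and was not called without the AICAR pair (adjusted p = 0.056). Summed over the chains, collagen stood at 5107 to 6507 CPM at d8 and at 8937, 64460, 23360 and 25010 CPM at d16. Eln, which encodes elastin, was at 7.64, 7.28, 8.89 and 2.15 CPM at d8 and at 616, 574, 1008 and 1232 CPM at d16 (log2 fold change 6.72, SE 0.36, adjusted p = 0.000485). Of 30 other matrix genes 29 were tested, 17 rose and 1, the collagen-crosslinking enzyme gene Lox, fell. The rises numbered 11 to 16 with any 1 pair left out.

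Fibroblast genes, which feeder cells and mesenchymal derivatives share, moved with the day. Of 16, 10 were tested, 7 rose and 0 fell, with a median of 1.75, and 5 to 7 rose with any 1 pair left out. Their summed level was 2024 to 2406 CPM at d8 and 2497, 4779, 3509 and 3593 CPM at d16. Fap, a surface protease of activated fibroblasts, rose by 3.14 on the log2 scale (SE 0.43, adjusted p = 0.00633), and Vim did not pass (0.43, adjusted p = 0.123). Their part in the matrix result was not tested. Immediate early and heat shock genes, which respond quickly to stress or serum, also moved with the day, with 10 rises and 1 fall among 16 tested of 19 and a summed level of 989.8 to 1672 CPM at d8 and 2217 to 4796 CPM at d16. Without the Basal pair 3 of them rose, and without the 2iL pair 6. Fos was at 138, 98.2, 156 and 198 CPM at d8 and at 1419, 1063, 411 and 518 CPM at d16 (log2 fold change 2.42, SE 0.44, adjusted p = 0.0134), and was not called without the Basal pair (adjusted p = 0.0522). Their part in the other differences between days was not tested.

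Genes of insulin-like growth factors, complement and the LIF receptor were also among the rises. Igf1, a growth factor, was at 2.43, 6.06, 21.7 and 8.61 CPM at d8 and at 19.8, 580.1, 161 and 138 CPM at d16 (log2 fold change 4.24, SE 0.67, adjusted p = 0.00899). It was higher at d16 in every pair, but its d8 level in AICAR exceeded its d16 level in Basal medium. Of 11 genes of insulin-like growth factors and their binding proteins, 7 rose, 1, the receptor gene Igf1r, fell and 3 did not pass. C4b, a complement component, had 2 counts over the d8 libraries, in Basal medium and 2iL, and 2267, 3324, 387 and 639 counts at d16, a depth-adjusted ratio of 1693 (95% counting interval 469 to 13984). Of 24 complement, chemokine and acute-phase genes 13 were tested, 9 rose and 1, Ptgs2 (−1.62, adjusted p = 0.0455), fell, and 7 to 10 rose with any 1 pair left out.

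Lifr and Il6st, the subunits of the LIF receptor, rose by 2.52 (SE 0.21, adjusted p = 0.00178) and 2.56 (SE 0.29, adjusted p = 0.00362) on the log2 scale. Socs3, the feedback inhibitor that STAT3 induces, was at 44.1, 109.5, 42.5 and 66.7 CPM at d8 and at 330.1, 451, 75.3 and 200.5 CPM at d16 (log2 fold change 1.88, SE 0.33, adjusted p = 0.0123). It was higher at d16 in every pair, with or without LIF, and its d16 level in AICAR lay within the d8 range. Of 11 genes of the LIF receptor and STAT3 targets 10 were tested, 5 rose, Gfap among them, 1, the kinase gene Pim1 (−0.87, adjusted p = 0.0436), fell and 4 did not pass. With any 1 pair left out 4 to 5 rose and 0 fell. Of 20 genes of BMP and TGF-β signaling, all tested, 10 rose and 1 fell, among the rises the targets Id1 (1.62), Id3 (1.97) and Id4 (1.83). Without the Basal pair 4 rose, and 6 to 8 rose without any other.

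Genes of cell division fell. Of 20 mitosis genes, all tested, 15 fell and 0 rose, with a median of −1.08. The falls numbered 1 without the Basal pair, 7 without the 2iL pair, 10 without the AICAR pair and 15 without the AICAR+LIF pair. Mki67, the antigen of cycling cells, was at 177, 283, 332 and 267 CPM at d8 and at 101, 94.5, 227 and 168 CPM at d16. It was lower at d16 in every pair, though the days overlapped (log2 fold change −0.90, SE 0.21, adjusted p = 0.0262), and it was not called without the Basal pair (adjusted p = 0.0761) or the block (0.0929). Of 28 replication genes 15 fell and 0 rose, and 4 to 11 fell with any 1 pair left out. Of 18 CDK inhibitors and p53 targets 16 were tested, 6 fell and 1 rose, with a median of −0.191. Their falls numbered 1 to 3 with any 1 pair left out.

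Cytosolic ribosomal protein genes had a median of −0.424, and 19 of 78 tested fell. That number was 0 without the AICAR pair, 1 without the Basal or the AICAR+LIF pair, 17 without the 2iL pair and 46 without normalization factors. Nuclear-encoded oxidative phosphorylation genes rose in 26 of 73 tested cases and fell in 0, with a median of 0.564. The rises numbered 2 without the Basal pair, 5 without the 2iL pair, 4 without the AICAR pair and 15 without normalization factors. Of 13 mitochondrially encoded mRNAs 6 rose and 0 fell, with a median of 0.672, and 0 to 2 rose with any 1 pair left out. These mRNAs and other mitochondrial transcripts took 1.77, 2.03, 2.04 and 2.56% of counts at d8 and 3.14, 3.13, 2.401 and 2.75% at d16. The share was higher at d16 in every pair, and its part in the other differences between the days was not tested.

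Lysosomal genes rose in 11 of 22 cases, and in 2, 5 and 3 without the Basal, 2iL and AICAR pairs.

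**Figure D3:**
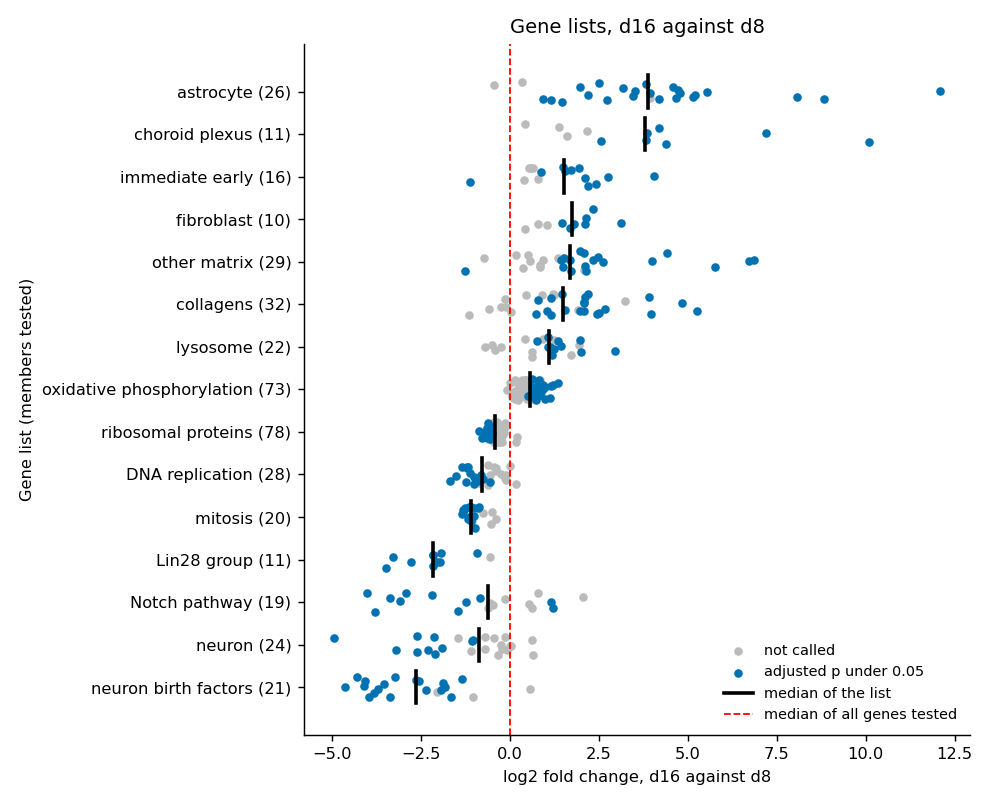
Log2 fold change of d16 over d8 for the tested members of 15 gene lists, with 1 point per gene, blue where the adjusted p was under 0.05 and grey where it was not. Black bars mark each list's median and the dashed line the median of all genes (0.0057), and the list medians reach from −2.63 for factors of neuron birth to 3.88 for astrocyte genes.

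RNA-binding and growth genes of early development fell together. Lin28a blocks maturation of the let-7 microRNAs, and let-7 in turn represses Lin28, Hmga2 and the Igf2bp genes. Lin28a (chromosome 4, 134003330 to 134018841) was at 6.598, 5.25, 32.6 and 36.6 CPM at d8 and at 0, 0.851, 3.15 and 4.19 CPM at d16 (log2 fold change −3.48, SE 0.53, adjusted p = 0.00849), with an adjusted p of 0.0556 without the block. On both days it was higher with AICAR than without. In primed Oct4GIP cells it was at 341 CPM of total counts, a scale without TMM factors. Lin28b was at 25, 24.7, 42.5 and 60.3 CPM at d8 and at 5.19, 3.405, 8.82 and 21.3 CPM at d16 (log2 fold change −2.17, SE 0.28, adjusted p = 0.00512). Igf2bp1, which binds and stabilizes growth mRNAs, was at 179 to 242 CPM at d8 and at 36.3, 45.1, 58.9 and 81.9 CPM at d16 (log2 fold change −1.97, SE 0.19, adjusted p = 0.00226). The days did not overlap for these 3 genes. Hmga2, a chromatin protein of fetal progenitors, was at 85.8, 76.8, 185 and 217 CPM at d8 and at 8.84, 3.83, 68.1 and 171 CPM at d16. The smallest difference was in the AICAR+LIF pair (−0.34 on the log2 scale). Its call (log2 fold change −2.15, SE 0.62, adjusted p = 0.046) was lost without the Basal (0.149), 2iL (0.0958) or AICAR pair (0.0796) and without the block (0.417). Of the 11 genes of this list, written after the leading genes were seen, all were tested, 10 fell and Dis3l2 did not pass (−0.55, adjusted p = 0.0733). The falls numbered 7 to 10 with any 1 pair left out.

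Host transcripts named for their microRNAs were followed as well, since mature microRNAs were not measured. Of 13 such transcripts, listed after the leading genes were seen, 8 were tested, 4 fell and 1 rose. Mir99ahg (chromosome 16, 77236317 to 77773427), which spans the genes of miR-99a, let-7c and miR-125b, was at 4.17, 4.85, 3.95 and 2.15 CPM at d8 and at 17.3, 20, 8.51 and 8.77 CPM at d16. All d16 levels lay above all d8 levels (log2 fold change 1.84, SE 0.33, adjusted p = 0.0122), and it was not called without the Basal (adjusted p = 0.0664) or the 2iL pair (0.0539). Mir9-3hg (chromosome 7, 79500026 to 79534403), a host of miR-9, was at 152, 82.5, 20.7 and 19.4 CPM at d8 and at 38.8, 15.7, 6.93 and 4.57 CPM at d16 (log2 fold change −2.02, SE 0.21, adjusted p = 0.00267). It was lower at d16 in every pair, and its adjusted p was 0.0966 without the block. Mir17hg, the host of the miR-17 to miR-92a cluster, fell by 2.43 on the log2 scale (SE 0.53, adjusted p = 0.0222), and was not called without the Basal (0.0649) or AICAR pair (0.0709). Mir124a-1hg and Mir124-2hg, hosts of miR-124, a microRNA of neurons, fell by 3.21 (SE 0.44, adjusted p = 0.00639) and 3.65 (SE 0.47, adjusted p = 0.00512). Mature sequences of the host that rose and of hosts that fell are given 5′ to 3′ from RefSeq (GRCm38.p6), with the seed, bases 2 to 8, in capitals.
let-7c-5p, chr16:77599672-77599693, plus strand: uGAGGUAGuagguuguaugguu
miR-99a-5p, chr16:77598940-77598961, plus strand: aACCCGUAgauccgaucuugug
miR-125b-5p, chr16:77646279-77646300, plus strand: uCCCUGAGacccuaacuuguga
miR-9-5p, chr7:79505279-79505301, plus strand: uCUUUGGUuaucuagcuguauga
miR-17-5p, chr14:115043684-115043706, plus strand: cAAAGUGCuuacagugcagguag
miR-20a-5p, chr14:115044183-115044205, plus strand: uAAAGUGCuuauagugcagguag
The seeds of miR-17-5p and miR-20a-5p are the same, and those of the other 4 differ from it and from each other. Mir100hg, which holds genes of miR-100, let-7a and miR-125b, and so a let-7 gene as well, was not called (log2 fold change 0.83, adjusted p = 0.0651).

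**Figure D4:**
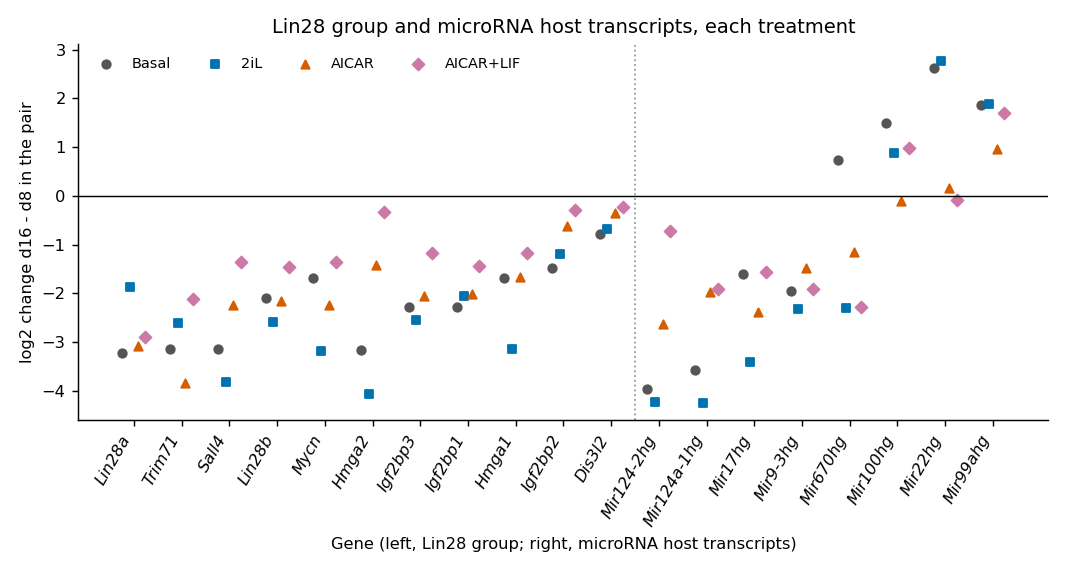
Log2 change of d16 over d8 within each treatment pair for the Lin28 group (left of the dotted line) and the microRNA host transcripts (right), with 1 marker per treatment. Every marker of the Lin28 group lies below 0, and all 4 of Mir99ahg lie above it.

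Pluripotency genes were low on both days. Pou5f1 (Oct4, chromosome 17, 35506018 to 35510772) was at 1.39, 0.808, 14.8 and 38.7 CPM at d8 and at 0.769, 0.851, 3.78 and 21.7 CPM at d16. In primed Oct4GIP cells it was at 860.4 CPM of total counts, so that the defining gene of the labelled line stood near 0 here in Basal medium and 2iL. It was lower at d16 in 3 of 4 pairs and was not called (log2 fold change −1.10, SE 0.40, adjusted p = 0.0871). Nanog was at 1.39, 2.02, 23.7 and 81.8 CPM at d8 and at 3.08, 5.11, 4.41 and 29.3 CPM at d16, lower at d16 in both AICAR pairs and higher in the others (log2 fold change −0.71, SE 0.66, adjusted p = 0.45). Cdh1 (E-cadherin) was at 0.695, 0.808, 68.1 and 131 CPM at d8 and at 1.35, 1.702, 22.7 and 10.3 CPM at d16 (log2 fold change −1.73, SE 0.74, adjusted p = 0.128). Pecam1, which the study used to sort cells, was at 0.987 to 11.3 CPM at d8 and 3.78 to 9.15 CPM at d16 (log2 fold change −0.03, SE 0.52, adjusted p = 0.97). Dppa5a had 0 counts over the d8 libraries and 3 over those at d16, and Dazl had 0 in all 8, levels at or under the floor of 3 counts. Of 12 pluripotency genes shared by naive and primed cells 7 were tested, 3 fell and 0 rose. Of all genes tested 9.5% were lower. The falls numbered 2 to 3 with any 1 pair left out. With only the 2 pairs with AICAR, 5 of 7 fell and 0 rose, where 1553 of all 13284 genes tested were lower. In that fit Pou5f1 (−1.25, adjusted p = 0.0296), Nanog (−1.795, adjusted p = 0.000953) and Cdh1 (−2.47, adjusted p = 0.00018) were called lower.

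Of 16 naive genes 3 passed the filter on low counts, Klf2, Klf4 and Klf5, which other cell types also express. All 3 rose, but 1 rose without the Basal pair and 0 without the 2iL or the AICAR pair. Klf4 was at 8.89 to 40.9 CPM at d8 and 52.6 to 58.8 CPM at d16 (log2 fold change 1.31, SE 0.36, adjusted p = 0.0407), with an adjusted p of 0.134 without the Basal pair. Of 16 primed and mesendoderm genes 10 were tested, 3 fell and 1 rose, where 9.5% of all genes tested were lower and 14.7% higher. Without the Basal pair 1 of 13 tested fell and 0 rose, and without the 2iL pair 4 of 13 fell and 0 rose. Without the AICAR pair 2 of 9 fell and 1 rose. Pou3f1 (Oct6), which neural progenitors also express, was at 48.97, 25.1, 18.8 and 17.2 CPM at d8 and at 1.15, 1.28, 1.26 and 4.57 CPM at d16 (log2 fold change −3.89, SE 0.57, adjusted p = 0.00768). Sox3, shared by epiblast and neural progenitors, fell by 2.96 on the log2 scale (SE 0.62, adjusted p = 0.0191), and was not called without the Basal pair (adjusted p = 0.0586). The mesendoderm factors Eomes (1.36, adjusted p = 0.072) and T (0.69, adjusted p = 0.424) did not pass.

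Whether the change from d8 to d16 differed with AICAR was tested as an interaction of day and AICAR in the same 8 libraries. It was called for 118 genes (0.841%), 57 with a more positive and 61 with a more negative change in the pairs with AICAR. By the mean change in each arm, 38 of them were higher at d16 without AICAR and lower with it, 29 the reverse, 26 higher in both and 25 lower in both. With the AICAR or the AICAR+LIF pair left out, edgeR called 0 genes (1302 and 1155 at an unadjusted p under 0.05). Without the Basal or the 2iL pair it called 2093 and 1785, the lone pair of an arm being assumed to vary like the others. The shallowest libraries were AICAR and AICAR+LIF at d8, and after all were thinned to the smallest total 73 genes were called, 53 of them among the 118.

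Keratins of simple epithelia went up without AICAR and down with it. Krt18 (chromosome 15, 102028180 to 102032027) was at 11.1 and 6.47 CPM in Basal medium and 2iL at d8 and at 134 and 197 CPM at d16. In AICAR and AICAR+LIF it was at 221 and 489 CPM at d8 and at 24.6 and 36.6 CPM at d16, and the changes differed by −7.65 on the log2 scale (SE 0.48, adjusted p = 0.0133). Krt8, its partner, was at 48.3 and 20.6 CPM and then at 147 and 220.5 CPM without AICAR, and at 329 and 529.5 CPM and then at 66.2 and 62.5 CPM with it (−5.14, SE 0.60, adjusted p = 0.028). Of 18 epithelial genes 9 were tested, and 3 were called, Krt18, Krt8 and the tight junction gene Cldn6. The list's summed level was 76.8 and 46.9 CPM without AICAR and 1190 and 2116 CPM with it at d8, and 212 to 432 CPM at d16. For the day effect edgeR called 0 of the 9. Each subset of pairs was filtered anew, and 6 of 12 tested fell without the Basal pair and 1 of 12 without the 2iL pair. The other leading genes of this direction were Cryab (−5.02), a small heat shock protein, Apoe (−4.83), a lipid carrier, and Bcam (−4.65), a laminin receptor. Apoe was at 37.2 and 42.03 CPM and then at 2403 and 4045 CPM without AICAR, and at 102 and 159 CPM and then at 442 and 272 CPM with it (SE 0.48, adjusted p = 0.028). It was higher at d16 in all 4 pairs.

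Neuronal genes were called in the other direction. Robo3 and Ebf2, whose levels stand above, differed by 4.82 (SE 0.62, adjusted p = 0.0329) and 4.55 (SE 0.42, adjusted p = 0.028). Both were higher in Basal medium and 2iL than in the AICAR arms at d8. Glrb, the β subunit of the glycine receptor, was at 12.8 and 16.2 CPM and then at 30.96 and 28.1 CPM without AICAR, and at 5.92 and 0 CPM and then at 227 and 55.3 CPM with it (4.41, SE 0.56, adjusted p = 0.0313). Crtac1 and Cnr1, the neuronal cannabinoid receptor, differed by 4.3 and 4.07 (adjusted p = 0.0356 and 0.0441). At d8 Cnr1 was at 198 and 73.2 CPM without AICAR and at 11.8 and 6.46 CPM with it, and at d16 it was at 25.5 to 41.2 CPM throughout. Of the 21 tested factors of neuron birth 5 were called (Ebf2, Scrt1, Scrt2, Nhlh1 and Nhlh2), and of the 24 tested genes of neuronal structure 6 (Robo3, Cntn2, Dcx, Elavl3, Ina and Slc17a6), each with a more positive change with AICAR. Of the 26 astrocyte genes 2 were called, Apoe and Clu. Gfap (−0.5, SE 1.82, adjusted p = 0.928) and Aqp4 (1.2, SE 1.02, adjusted p = 0.625) were not called.

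**Figure D5:**
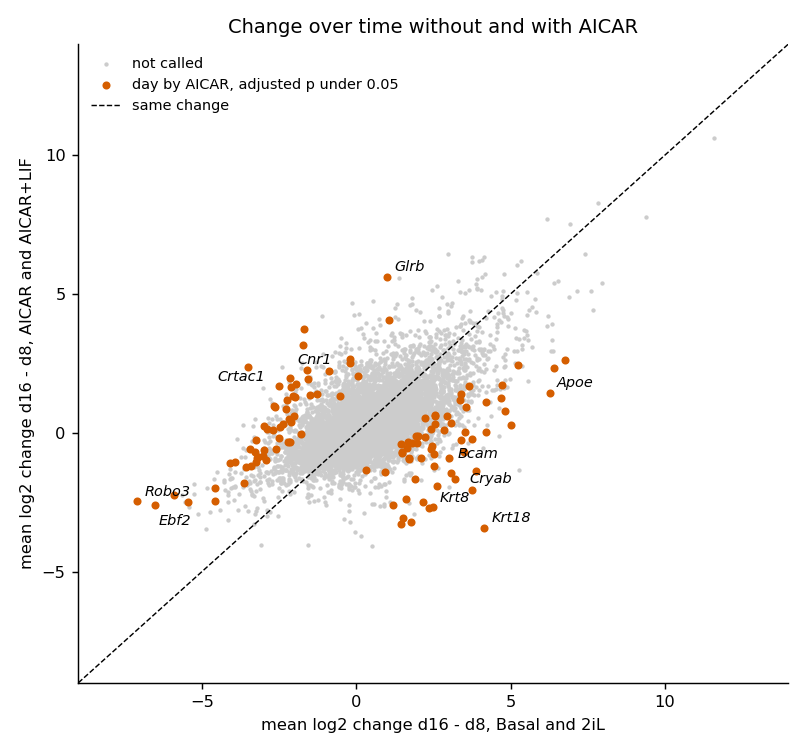
Mean log2 change of d16 over d8 in the pairs with AICAR (vertical axis) against that in the pairs without (horizontal axis), with 1 point per gene tested and the 118 genes called for the interaction in orange. The dashed line marks equal change, and Krt18 (4.14 without AICAR, −3.42 with it) lies at the lower right.

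The same test for LIF compared the 2iL and AICAR+LIF pairs with the Basal and AICAR pairs. EdgeR called 0 genes (0%), with 233 (1.66%) at an unadjusted p under 0.05, and DESeq2 called 1. The smallest p-values were those of Cfi, Megf6 and Aspn, each with an adjusted p of 1. Cfi, a complement regulator, was at 0 to 3.23 CPM at d8, and at d16 at 612 and 123 CPM with LIF and 18.1 and 27.4 CPM without it. Megf6 was at 68.9 to 97.2 CPM at d8, and at d16 at 395 and 268 CPM with LIF and 102 and 75.3 CPM without it. The arms with LIF differ in more than LIF, since 2iL also holds the kinase inhibitors and AICAR+LIF holds AICAR. The STAT3 target Socs3 had an unadjusted p of 0.906 in this edgeR test.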

How the data were processed

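Per the methods of the study, stranded mRNA libraries were sequenced as single reads and mapped with Bowtie2 2.2.5 to Ensembl cDNA and ncRNA sequences (GRCm38), keeping alignments of MAPQ 1 or more. The authors deposited raw read counts per gene, without normalization. Genes with near-identical copies may share or lose reads. The 4 libraries at d8 and the 4 at d16 were used, with 438771 to 5290163 counts. The labels do not say whether they were separate cultures.

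Counts were filtered with filterByExpr by day (14026 of 34489 genes), scaled by TMM and fitted in edgeR 4.0.16 (R 4.3.3) by its quasi-likelihood method, with treatment as block and Benjamini-Hochberg adjustment at 0.05. The pairing comes from the treatment in the labels. Deviations of same-treatment libraries from the means of their days correlated in every pair (r = 0.13 to 0.479), but those between treatments were not computed. By log2 CPM, Basal d8 and AICAR+LIF d8 were most like their own d16 partners (r = 0.792 and 0.835). AICAR d8 was nearer AICAR+LIF d16 (0.854) than AICAR d16 (0.836). The 2iL d8 library was less like 2iL d16 (0.705) than Basal (0.769), AICAR (0.764) or AICAR+LIF d16 (0.774). Interactions of day with AICAR and with LIF were separate fits, and changes per pair used log2 CPM with a prior count of 2. The fits were tested on simulated data. Alternatives used DESeq2 1.42.0, limma 3.58.1 (voom), other scalings and filters, thinning, and subsets of the pairs. Subsets were filtered anew, so the number of list members tested could differ from that given for all pairs. Leaving a pair out of the interactions was added after seeing the data. Tables used Python 3.11.15.

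Named genes were the 12 largest rises and falls past the threshold with a mean log2 CPM not below 4, 1 direction in all pairs and no clone name, the list members with the smallest p and those called, up to 5 genes per direction of an interaction (3 by p where none passed) and the study's markers. List members named although they did not pass were chosen after their values were seen. Members and lists were chosen with earlier results of these data known, and 9 of the 46 lists were written after the leading genes had been seen. Positions are from GENCODE (GRCm38). Intervals cover counting error only.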

Additional observations from a re-analysis of the deposited data

Results flagged for a closer look

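In 12 of 132 groups of 4 libraries, each group being 1 gene on 1 day, 1 library stood apart from the other 3 by Dixon's criterion, which chance alone meets in about 1 of 20. The library was the highest of its 4 in Basal medium at d16 for Ttr (4142 CPM), Slc1a3 (2504 CPM) and Hes5 (26.7 CPM). It was AICAR+LIF at d16 for Pou5f1 (21.7 CPM), Nanog (29.3 CPM) and Pou3f1 (4.57 CPM), and AICAR at d16 for Glrb (227 CPM). At d8 it was 2iL for Aldoc (40.8 CPM), AICAR for Fmod (2.96 CPM) and AICAR+LIF for Klf2 (6.46 CPM) and Clu (96.9 CPM). Cfi in AICAR+LIF at d8 was the lowest of its 4 (0 CPM), in a library in which 3 counts amount to 6.46 CPM.

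The change from d8 to d16 differed with AICAR for 118 genes by the interaction test in edgeR. The largest positive differences on the log2 scale were those of Robo3 (4.82), Ebf2 (4.55), Glrb (4.41), Crtac1 (4.3) and Cnr1 (4.07). The largest negative ones were those of Krt18 (−7.65), Krt8 (−5.14), Cryab (−5.02), Apoe (−4.83) and Bcam (−4.65), all among well expressed genes.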

How the results depend on the processing

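The day effect was called for 3398 genes, and for 4284 with limma voom, 3563 with DESeq2 and 3534 without normalization factors. It was called for 2218 of 8385 genes when 10 counts were required of each library, a filter that leaves none of the 12 largest rises and 5 of the 12 largest falls, and for 1735 of 8617 genes after thinning. Without 1 pair it was called for 1209 to 2645 genes. Without the block of treatment that sets the pairing it was called for 2590.

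The interaction of day and AICAR was called for 118 genes, 309 without normalization factors, 283 with DESeq2, 69 with limma voom, 1284 without the filter, 73 after thinning and 0 to 2093 without 1 pair. That of day and LIF was called for 0 genes, 1 with DESeq2 and 27 without the filter. The causes were not tested. Of 80 genes followed, 41 kept direction and call under every alternative in which they were tested. Only 34 of the 80 were tested where 10 counts were required of each library. Krt18, Krt8 and Cnr1, not called for the day, changed sign with a subset of pairs, Krt18 to −3.46 and Cnr1 to 1.83 with only the AICAR pairs and Krt8 to 2.46 with only the others. Depth limits the d8 levels of AICAR+LIF most.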
